A study of Homo sapiens with 4 samples.

Results

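MDA-MB-231 cells given FOXF2 siRNA were set against MDA-MB-231 cells given control siRNA, over all genes of the deposited intensity table. These are 2 of the 4 arrays of the study, and the other 2 are MCF10A cells given FOXF2 siRNA and MCF10A cells given control siRNA. Every culture was transfected with an RNA oligonucleotide at 20 nM and harvested at 48 h, and the RNA of each group was read on 1 Illumina array. MDA-MB-231 was derived from a metastasis of a breast tumour; MCF10A, immortalized breast epithelium that forms no tumours, serves here as background. With 1 array per group there is no spread between replicates, so differences are given by size and none was tested.

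FOXF2 is a forkhead transcription factor, a protein that binds DNA through a winged-helix domain, and is best known from the mesenchyme of the developing gut and palate. A small interfering RNA directs the cell's RNA-induced silencing complex to cut a matching transcript. MDA-MB-231 cells lack oestrogen receptor, progesterone receptor and amplified ERBB2, look mesenchymal, and secrete proteases and cytokines that are used as readouts of invasive behaviour.

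Of 37810 gene names, 16796 were above background on at least 1 of the MDA-MB-231 arrays and 11401 on both. Above background means an intensity over 121, the upper 1% of each array's background. The log2 differences below are FOXF2 siRNA minus control siRNA after background correction, with an offset of 16. Of 9 genes chosen as high in MDA-MB-231, 8 were above background on each of its arrays, and 8 also on each MCF10A array. In MDA-MB-231 they had summed intensities of 29309 with FOXF2 siRNA and 34952 with control siRNA, against 19374 and 19767 in MCF10A. Fibronectin (FN1), the ninth, was at background on both MDA-MB-231 arrays. Of 9 genes chosen as low in MDA-MB-231, 3 were above background with FOXF2 siRNA and 4 with control siRNA. ERBB2 (216 and 230), TACSTD1 (now EPCAM, 190 and 189) and CLDN4 (140 and 140) were above it on both arrays. CLDN3 was above it only with control siRNA, at 124. ESR1, PGR, CDH1, KRT5 and KRT14 were at background on both MDA-MB-231 arrays. Of 11 MCF10A markers, 3 were above background on each MDA-MB-231 array, against 11 on each MCF10A array. Markers of fibroblasts, endothelium and blood cells gave 3 of 20 genes above background with FOXF2 siRNA and 3 of 20 with control siRNA, and none of these exceeded an intensity of 190.2.

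FOXF2 itself had an intensity of 123 with FOXF2 siRNA, against 259 with control siRNA. The deposited signal thus stood at 47.3% of control, most of which is background, and the background-corrected log2 difference was -2.25. Without background correction the log2 difference was -1.08, and since 123 lies at the limit of 121 the depth of the knockdown is not resolved. In MCF10A, FOXF2 had 143 with FOXF2 siRNA and 241 with control siRNA, a log2 difference of -1.45. Of 19 forkhead genes measured, 3 were at least 1.5-fold lower and 0 at least 1.5-fold higher, beside 7.47% and 7.31% of all genes measured, with a median log2 difference of 0.02. The 3 were the siRNA's own target FOXF2, FOXC1 and FOXO4. FOXC1, a forkhead factor of mesenchymal and basal-like cells, had an intensity of 1069 with FOXF2 siRNA and 1684 with control siRNA, a log2 difference of -0.70. FOXO4, a forkhead factor restrained by insulin signalling, had 165 and 220, a log2 difference of -0.76 that was -0.41 without background correction.

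At least 2-fold higher with FOXF2 siRNA were 201 genes, 1.2% of those measured, and at least 2-fold lower were 233, or 1.39%. Most of these were dim: among the 4566 genes above background on both arrays and at an intensity of 500 or more on at least 1, called bright here, 17 were 2-fold higher (0.372%) and 16 were 2-fold lower (0.35%). At 1.5-fold, 161 bright genes were higher (3.53%) and 167 were lower (3.66%). The median log2 difference of the bright genes was -0.01, with 49.3% of them above 0 and 50.7% below. Near-equal column means and medians point to scaling of the deposited values between arrays, which would set this balance. Their robust SD was 0.321, against 0.275 in MCF10A for those of them also above background on both MCF10A arrays. In MDA-MB-231 it was 0.310 among the 510 genes at 5000 or more, where it was 0.222 in MCF10A under the same filter. Brightness was set on the MDA-MB-231 arrays only. The spread contains array, culture and siRNA together, and its parts cannot be told apart. Genes above background on 1 array give bounds: with FOXF2 siRNA, NPTXR, a neuronal pentraxin receptor, was at least 3.27-fold higher, ABHD14B at least 3.26-fold and PLD2, a phospholipase, at least 2.96-fold. LOC343052 was at least 3.41-fold lower, KIR2DS4, a receptor of natural killer cells, at least 3.14-fold and C6ORF145 (now PXDC1) at least 2.69-fold. All 6 had intensities of at most 205.7, near background, and the bounds rest on the background correction and offset. In the deposited values the higher ones differed 1.66-fold to 1.78-fold, and the lower ones 1.74-fold to 2.14-fold.

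**Figure D1:**
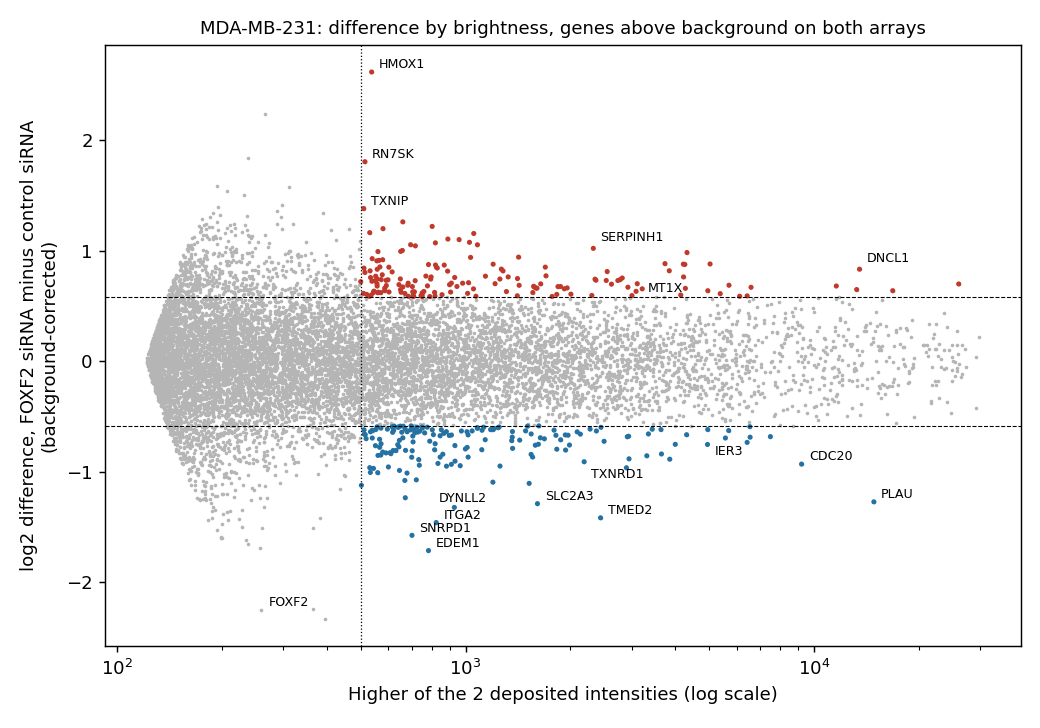
Log2 difference of FOXF2 siRNA minus control siRNA in MDA-MB-231 (vertical axis, background-corrected) against the higher of the 2 deposited intensities (horizontal axis, log scale), 1 point per gene above background on both arrays. Dashed lines mark a 1.5-fold difference, the dotted line an intensity of 500, red the 161 bright genes at least 1.5-fold higher and blue the 167 at least 1.5-fold lower. PLAU and TMED2 stand out below the cloud at high intensity, HMOX1 above it.

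Among bright genes named here at 2-fold, the brightest was PLAU, which encodes urokinase, the protease that turns plasminogen into plasmin at the cell surface. PLAU had an intensity of 6207 with FOXF2 siRNA and 14878 with control siRNA, 2.40-fold lower in the deposited values. Its surface receptor PLAUR had 1077 and 1119, a log2 difference of -0.06. Of 20 measured members of the protease and inhibitor list, 5 were at least 1.5-fold lower and 2 at least 1.5-fold higher, beside 7.47% and 7.31% of all genes measured, and the median was -0.07. The bright cathepsin gene CTSB had 438 and 616, a log2 difference of -0.59. In MCF10A, PLAU had 856 with FOXF2 siRNA and 1145 with control siRNA, a log2 difference of -0.46.

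TMED2, a cargo receptor of vesicles between endoplasmic reticulum (ER) and Golgi, had an intensity of 968 with FOXF2 siRNA and 2442 with control siRNA, a log2 difference of -1.42. Its partner TMED10 had 419 and 539, a log2 difference of -0.45. The rest of the early secretory list did not share this direction: of 37 measured coat and cargo receptor genes 25 were above 0, beside 49.8% of all genes, and the median was 0.08. EDEM1, which sends misfolded glycoproteins to degradation, had 299 and 783, a log2 difference of -1.71 and the lowest among bright named genes. FAM116A (now DENND6A), an exchange factor for a Rab GTPase of recycling endosomes, had 423 and 929, a log2 difference of -1.32. TMED2, EDEM1 and FAM116A were each at least 1.5-fold lower in MCF10A as well, with log2 differences of -1.11, -0.75 and -0.83.

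Genes of ER folding and the unfolded protein response had a median log2 difference of -0.07 over 32 measured genes. At least 1.5-fold lower were 3 of them, EDEM1, HSPA5 and ARMET, and 1 was higher, beside 7.47% and 7.31% of all genes. HSPA5 (BiP), the chief ER chaperone, had an intensity of 539 with FOXF2 siRNA and 933 with control siRNA, a log2 difference of -0.90. ARMET (now MANF), a small secreted ER stress protein, had 3902 and 6436, a log2 difference of -0.73. HSP90B1, the ER form of HSP90, had 5836 and 8707, a log2 difference of -0.58 that lies just short of 1.5-fold, and the calcium-binding chaperone CALR had 1061 and 1398, a log2 difference of -0.43. DNAJB9, a co-chaperone, was on the other side at 324 and 222, a log2 difference of 0.81, as was the stress transcription factor gene XBP1 at 1789 and 1551, a log2 difference of 0.22. The promoter of HSPA5 is shown because several of these genes carry a named element, the ER stress element, made of CCAAT and CCACG with 9 bases of any kind between them, read by NF-Y and ATF6 in the unfolded protein response. Promoters here are RefSeq windows of GRCh38.p14, 250 bases before to 50 after the start site, searched on both strands. The window of HSPA5 (chr9:125241294-125241593, minus strand) holds the element, in capitals.
HSPA5: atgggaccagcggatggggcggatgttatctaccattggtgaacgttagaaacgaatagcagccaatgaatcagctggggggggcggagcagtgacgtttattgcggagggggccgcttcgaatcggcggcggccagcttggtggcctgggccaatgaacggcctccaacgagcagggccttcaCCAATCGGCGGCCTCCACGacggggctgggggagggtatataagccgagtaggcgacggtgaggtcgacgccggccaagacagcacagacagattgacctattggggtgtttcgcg
The element was held by 7 of 30 promoters of the ER list (23.3%), against 0.0806% of all 27305 promoters. Those 7 genes (CALR, CANX, CRELD2, ERO1LB, HSP90B1, HSPA5 and XBP1) had a median log2 difference of -0.43 with 6 below 0, and the 23 measured genes whose promoter lacks these letters had a median of 0.03 with 11 below 0. Of the 3 list members at least 1.5-fold lower, only HSPA5 is among the 7. EDEM1, the lowest of the list at -1.71, is among the 23. ERO1LB, with 111 and 124, was above background on 1 array only. Of all genes measured 50.2% were below 0, and this split by promoter is a description only.

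The ATF4 and amino acid list had a median of 0.08 over 24 measured genes, with 13 above 0, beside 49.8% of all genes. Of the 24 genes 3 were at least 1.5-fold lower and 1 higher, beside 7.47% and 7.31% of all genes. PPP1R15A, which recruits the phosphatase that restores translation, had an intensity of 754 with FOXF2 siRNA and 1523 with control siRNA, a log2 difference of -1.11. TRIB3, a pseudokinase induced by ATF4, had 381 and 541, a log2 difference of -0.63 that was -0.51 without background correction.

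Among adhesion and transport genes, ITGA2, a subunit of a receptor for collagen, had an intensity of 354 with FOXF2 siRNA and 824 with control siRNA, a log2 difference of -1.46. The shared beta-1 subunit ITGB1 had 2383 and 3195 (log2 difference -0.44), ITGA6 had 234 and 303 (-0.55) and ITGA3 had 1775 and 1942 (-0.14). The focal adhesion adaptor TNS3 was higher at 1843 and 1186, a log2 difference of 0.68, and the 24 measured integrin and focal adhesion genes had a median of -0.01. SLC2A3, a high-affinity glucose transporter, had 709 and 1609, a log2 difference of -1.29, while the main transporter SLC2A1 had 3549 and 4154, a log2 difference of -0.23. FAM38A (now PIEZO1), a mechanically gated cation channel, had 1527 and 2898, a log2 difference of -0.96.

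The remaining bright genes at the low end came from several functions. SNRPD1, an Sm core protein of the spliceosome, had 293 with FOXF2 siRNA and 702 with control siRNA, a log2 difference of -1.58, while the 28 measured Sm, Lsm and related genes had a median of -0.05. CHAF1B, a subunit of the factor that loads histones behind the replication fork, had 335 and 672 (log2 difference -1.24), and its partner CHAF1A had 410 and 467 (-0.23). SLCO4A1, an organic anion transporter, had 362 and 669 (-1.08). At 2000 or more, SAT1, which acetylates polyamines, had 2126 and 3858 (-0.89), the RNA-binding p53 target ZMAT3 had 1637 and 2948 (-0.88), and SCARB2, a lysosomal membrane protein, had 1870 and 3316 (-0.86).

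HMOX1, the inducible haem oxygenase, had the largest difference of any bright gene, with an intensity of 538 with FOXF2 siRNA and 160 with control siRNA, a log2 difference of 2.62. Without background correction it was 1.75. HMOX1 is a target of NRF2, the transcription factor that answers oxidants and electrophiles. Of 35 measured members of the NRF2 and oxidative defence list 28 were above 0, beside 49.8% of all genes, and the median was 0.11. Of the 35 members 4 passed 1.5-fold on the higher side and 1 on the lower, beside 7.31% and 7.47%. NFE2L2, which encodes NRF2, had 1575 and 1020, a log2 difference of 0.67. AKR1C2, an aldo-keto reductase, had 424 and 244, a log2 difference of 1.10. BLVRB, which reduces biliverdin downstream of haem oxygenase, had 571 and 446, a log2 difference of 0.43. TXNRD1, thioredoxin reductase and a classical NRF2 target, was lower, against the list, at 1207 and 2191, a log2 difference of -0.91, and NQO1, another, had 3582 and 3463, a log2 difference of 0.05. TXNRD1 did not share its direction with MCF10A, where it had 864 with FOXF2 siRNA and 785 with control siRNA. The same 35 genes had a median of 0.25 in MCF10A, with 7 below 0, beside 8495 of the 16796 genes measured in MDA-MB-231.

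TXNIP, which binds thioredoxin and restrains glucose uptake, had an intensity of 510 with FOXF2 siRNA and 249 with control siRNA, a log2 difference of 1.38. In MCF10A it had 1561 and 698, a log2 difference of 1.27. Thioredoxin itself, TXN, had 14801 and 13098 in MDA-MB-231, a log2 difference of 0.18. The promoter of TXNIP is printed because it was the only one found among the 12 highest bright genes with the forkhead core letters GTAAACA (chr1:145996530-145996829, minus strand), in capitals; the other core searched was ATAAACA, which shares the last 6 letters.
TXNIP: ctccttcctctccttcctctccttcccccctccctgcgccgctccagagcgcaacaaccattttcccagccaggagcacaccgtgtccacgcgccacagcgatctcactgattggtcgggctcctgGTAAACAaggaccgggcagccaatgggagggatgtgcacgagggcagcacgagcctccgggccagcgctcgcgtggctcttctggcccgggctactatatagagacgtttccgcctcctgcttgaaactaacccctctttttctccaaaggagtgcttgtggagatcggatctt
Across bright genes, GTAAACA was in 4 of 124 promoters of genes 1.5-fold lower (3.23%) and in 2 of 112 of genes 1.5-fold higher (1.79%), beside 2.13% of 3528 bright genes with a promoter. ATAAACA was in 3 of 124 and 0 of 112, beside 1.90%. These are short windows, and the letters are a description only.

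Other bright genes at the high end came from several functions. RN7SK, the small nuclear RNA that keeps the elongation factor P-TEFb inactive, had an intensity of 514 with FOXF2 siRNA and 209 with control siRNA. Its log2 difference was 1.81, and 1.30 without background correction. Of the 9 genes of its list 7 were below 0, beside 50.2% of all genes. CST1, a secreted cysteine protease inhibitor at background in MCF10A, had 661 and 326 (1.26), and MAP2K1IP1 (now LAMTOR3), a scaffold of MAP kinase and mTORC1 signalling on late endosomes, had 802 and 393 (1.22). ABCB6, a porphyrin transporter, had 579 and 301 (1.20), SLC4A11, of the bicarbonate transporter family, had 531 and 285 (1.16), and PLAC8 had 1056 and 521 (1.16). C7ORF36 (now YAE1), an assembly factor for an iron-sulphur protein of the ribosome, had 890 and 459 (1.11), and C9ORF46 (now PLGRKT), a plasminogen receptor, had 958 and 493 (1.10). FAM82A2 (now RMDN3), a tether between mitochondria and ER, had 1026 and 532, and BAMBI, a decoy receptor for TGF-beta and BMP, had 819 and 435, log2 differences of 1.08 and 1.07.

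At an intensity of 2000 or more the highest was SERPINH1, the collagen chaperone HSP47, at 2328 with FOXF2 siRNA and 1190 with control siRNA, a log2 difference of 1.02. In MCF10A it had 1703 and 1992, a log2 difference of -0.24. TNFRSF21, a death-domain receptor, had 4221 and 2334 (0.88), and COX7B2, a testis-type cytochrome oxidase subunit at background in MCF10A, had 3739 and 2065 (0.88). S100A4, a calcium-binding protein tied to cell motility, had 2551 and 1490 (0.81), and the metallothionein MT1X had 3846 and 2217 (0.82). The paralogs MT1A and MT2A had log2 differences of -0.03 and 0.10 and MT1E had -0.21, and probes of such near-identical genes may cross-hybridize. The mitochondrial ribosomal gene MRPL33 had 4227 and 2525, a log2 difference of 0.76.

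The light chains of the dynein motor were split between paralogs. DNCL1 and DYNLL1, separate entries of the table that are now 1 gene, had 13531 and 6525 with FOXF2 siRNA and 7631 and 5003 with control siRNA, log2 differences of 0.83 and 0.39. DYNLL2, the near-identical paralog, had 607 and 1198, a log2 difference of -1.09. DYNLRB1, a light chain of another family, had 2818 and 1707, a log2 difference of 0.75. In MCF10A the log2 differences were -0.17 for DNCL1, -0.38 for DYNLL1 and 0.02 for DYNLL2.

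**Figure D2:**
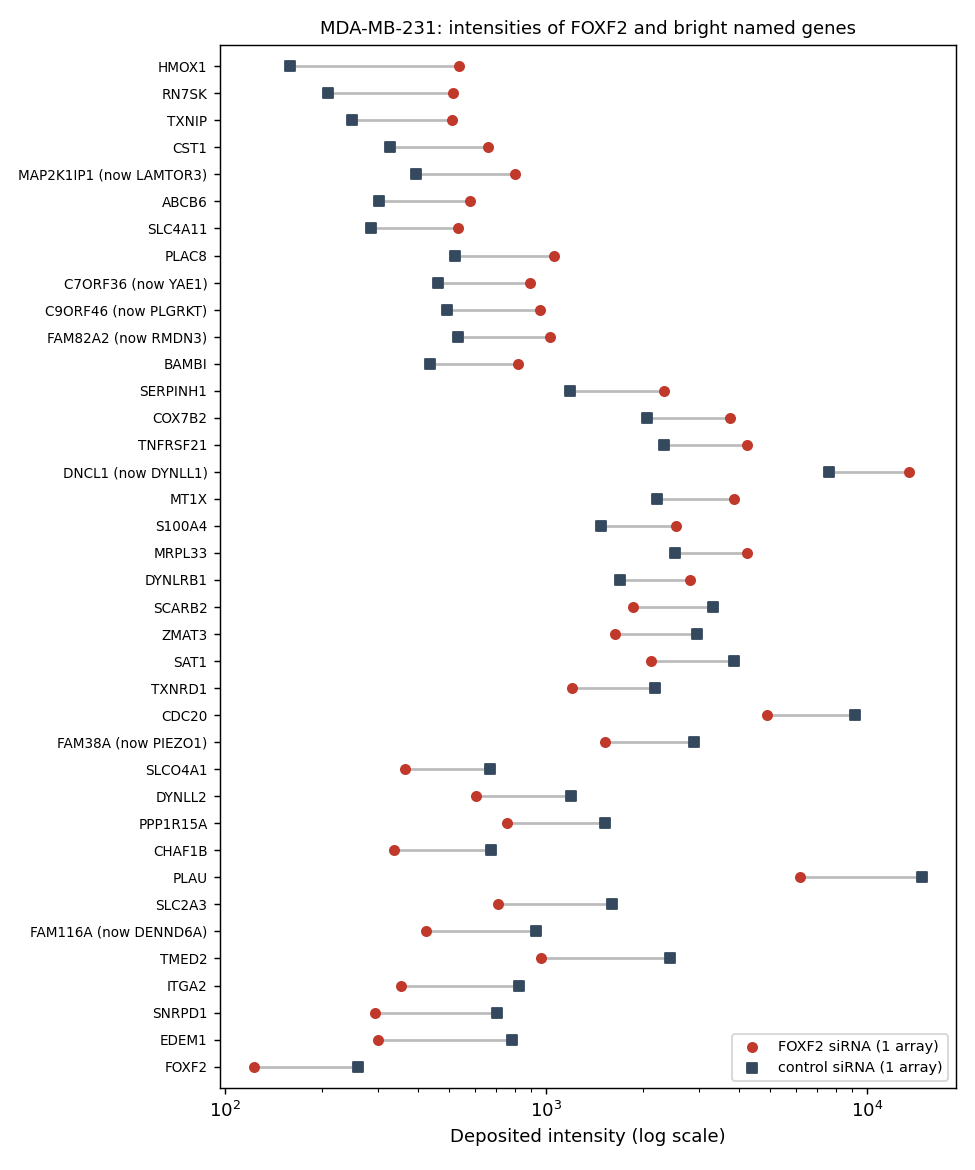
Deposited intensity (horizontal axis, log scale) of FOXF2 and of bright genes chosen by rule in MDA-MB-231, red circles for FOXF2 siRNA and dark squares for control siRNA, 1 array each, ordered from the highest log2 difference (HMOX1) down to FOXF2. PLAU, at 6207 with FOXF2 siRNA and 14878 with control siRNA, and DNCL1, at 13531 and 7631, are the brightest in the lower and the higher direction.

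Most genes of the mitosis list lay below 0 with FOXF2 siRNA. Of 48 measured mitosis and spindle genes 33 were below 0 (68.8%, beside 50.2% of all genes), 6 were at least 1.5-fold lower and 0 higher, beside 7.47% and 7.31% of all genes, and the median was -0.19. Of its 42 bright genes 30 were below 0, beside 50.7% of all bright genes. In MCF10A 43 of the 48 were below 0, with a median of -0.33, beside 8495 of the 16796 genes measured in MDA-MB-231. In RNA from whole cultures, fewer mitotic cells and less RNA per mitotic cell cannot be told apart. CDC20, the activator of the anaphase-promoting complex, had 4877 with FOXF2 siRNA and 9224 with control siRNA, a log2 difference of -0.93. CDC25C, a mitotic phosphatase, had 290 and 450 (-0.83), KIF2C, a kinesin that takes microtubules apart, had 972 and 1586 (-0.76), and BIRC5 (survivin), of the chromosomal passenger complex, had 997 and 1619 (-0.75). These 4 are the lowest of the list. NEK2, a centrosome kinase, had 659 and 973 (-0.63), PLK1, the polo kinase, had 488 and 715 (-0.65) and CCNB2, a mitotic cyclin, had 2773 and 3902 (-0.51). Other members of the list were higher, among them the separase gene ESPL1 at 649 and 501 (0.44), the phosphatase CDC25B at 1771 and 1352 (0.41) and the topoisomerase TOP2A at 5182 and 4689 (0.15). The 52 measured replication genes had a median of -0.01, with 2 at least 1.5-fold lower and 2 higher, beside 7.47% and 7.31% of all genes; the polymerase subunit POLA2 had 285 and 440 (-0.83), MCM2 had 1107 and 1099 (0.01) and PCNA had 1711 and 1425 (0.28). The 31 G1/S genes had a median of -0.15, with 1 at least 1.5-fold lower and 0 higher, beside the same shares.

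The promoter of CDC20 (chr1:43358731-43359030, plus strand) is shown for the cell cycle homology region, the letters TTTGAA through which repressor and activator complexes time mitotic genes; both of its matches are in capitals, 1 of them read on the other strand.
CDC20: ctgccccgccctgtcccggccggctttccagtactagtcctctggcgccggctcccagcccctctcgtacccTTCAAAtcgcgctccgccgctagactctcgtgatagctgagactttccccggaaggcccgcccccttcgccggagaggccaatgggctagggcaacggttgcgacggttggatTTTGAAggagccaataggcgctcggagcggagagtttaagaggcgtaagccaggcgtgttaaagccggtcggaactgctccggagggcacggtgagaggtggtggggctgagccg
TTTGAA was in 24 of 38 promoters of the mitosis list (63.2%), against 15.4% of all promoters. The 24 genes with it had a median log2 difference of -0.26 with 15 below 0. The 13 measured genes without it had a median of -0.18 with 9 below 0. Of all genes measured in MDA-MB-231, 50.2% were below 0.

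Immediate-early genes, which respond to growth signals within minutes, had the lowest median of the 37 lists, -0.31 over 25 measured genes, with 17 below 0, 6 at least 1.5-fold lower and 1 higher. Of all genes measured 50.2% were below 0, 7.47% at least 1.5-fold lower and 7.31% higher. JUN, an AP-1 subunit, had 1250 with FOXF2 siRNA and 1934 with control siRNA (-0.67), IER3, an early anti-apoptotic gene, had 2972 and 4952 (-0.75), and MCL1, a short-lived survival protein of the BCL2 family, had 360 and 551 (-0.76). IER5 had 530 and 381 (0.59) and the MAP kinase phosphatase DUSP1 had 1346 and 992 (0.48). The MAP kinase list, which includes feedback genes of the pathway, had 20 of 28 genes below 0 and a median of -0.15, with 0 at least 1.5-fold lower and 0 higher, beside the same shares. Its bright members HBEGF, an EGF receptor ligand, and EPHA2, an ephrin receptor, had log2 differences of -0.52 and -0.46.

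IL8 (now CXCL8), a neutrophil chemokine, had 264 with FOXF2 siRNA and 449 with control siRNA, a log2 difference of -1.03. IL11, a cytokine described in bone-metastatic sublines of this line, had 518 and 911, a log2 difference of -0.93, and CSF2 (GM-CSF) had 264 and 450, a log2 difference of -1.04. NFKB1, a precursor subunit of NF-kappaB, had 1847 and 2915, a log2 difference of -0.68, and its inhibitor NFKBIA had 1742 and 1907, a log2 difference of -0.14. Of 22 measured cytokine and NF-kappaB genes 4 were at least 1.5-fold lower and 2 higher, beside 7.47% and 7.31% of all genes, and the median was -0.20. Only 3 members were bright, and CXCL8 and CSF2 were not among them. Of the higher ones, CCL2, a monocyte chemokine, had 173 with FOXF2 siRNA and lay at background, 106, with control siRNA, and TNFAIP3, an inhibitor of NF-kappaB, had 175 and 136. IL6 had 149 and 155, a log2 difference of -0.13. The 44 measured interferon-stimulated genes had a median of 0.02; among them the ISG15 ligase HERC5 had 370 and 591, a log2 difference of -0.83.

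In the mesenchymal list 9 of 21 measured genes were above 0, beside 49.8% of all genes. Of 21 measured members 1 was at least 1.5-fold higher (S100A4) and 1 lower (FOXC1), beside 7.31% and 7.47% of all genes, and the median was -0.08. VIM, the intermediate filament vimentin, had 13731 with FOXF2 siRNA and 19421 with control siRNA (-0.50), the receptor kinase AXL had 3011 and 4213 (-0.50), and the hyaluronan receptor CD44 had 1458 and 2038 (-0.51). CDH11, a mesenchymal cadherin, had 1406 and 1108 (0.37). Of 24 epithelial junction and keratin genes 4 were at least 1.5-fold higher and 1 lower, beside 7.31% and 7.47% of all genes, with a median of 0.10. The simple keratin KRT19 had 981 and 634 (0.71). The plaque protein gene JUP had 295 and 171 (1.31, and 0.79 without background correction). CDH1 was at background on both arrays. The collagen and matricellular list had a median of -0.15 over 29 genes, with COL6A1 at 1921 and 1250 (0.66) and the matrix protein CYR61 at 6648 and 9034 (-0.45).

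Oxidative phosphorylation, cytosolic ribosomal protein and proteasome genes had small positive medians. Of 44 measured oxidative phosphorylation subunits 4 were at least 1.5-fold higher and 0 lower, beside 7.31% and 7.47% of all genes, and the median was 0.13, against -0.03 for the same genes in MCF10A. ATP5O, an ATP synthase stalk subunit, had 4279 with FOXF2 siRNA and 2740 with control siRNA (0.66), and the cytochrome oxidase subunits COX7B and COX6A1 had 3088 and 2022 (0.63), and 5387 and 3554 (0.61). CYC1, cytochrome c1, had 7126 and 10250 (-0.53). The cytosolic ribosomal protein list had a median of 0.11 with 38 of 57 above 0, beside 49.8% of all genes. The proteasome list had 0.13 with 22 of 38 above 0, beside the same share. In the ribosomal list RPS13 had 16855 and 10855 (0.64) and RPL13 had 680 and 1009 (-0.64). Reference genes used for normalization had a median of 0.09 over 16 genes, so these medians are of the size that reference genes also showed.

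In the hypoxia and glycolysis list 22 of 39 measured genes were above 0, beside 49.8% of all genes. CA9, a cell-surface carbonic anhydrase driven by HIF, had 312 with FOXF2 siRNA and 162 with control siRNA. Its log2 difference was 1.58, and 0.95 without background correction. The related CA12 had 778 and 517, a log2 difference of 0.68. NDRG1, another HIF target, had 585 and 932, a log2 difference of -0.76, and VEGFA had 141 and 177, a log2 difference of -0.72. Of 39 measured members 2 were at least 1.5-fold higher and 4 lower, beside 7.31% and 7.47% of all genes, and the median was 0.10. Bright glycolytic enzymes differed little: GAPDH had 15315 and 13899 (0.14), LDHA 15576 and 14506 (0.10), and ENO1 22063 and 24974 (-0.18).

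**Figure D3:**
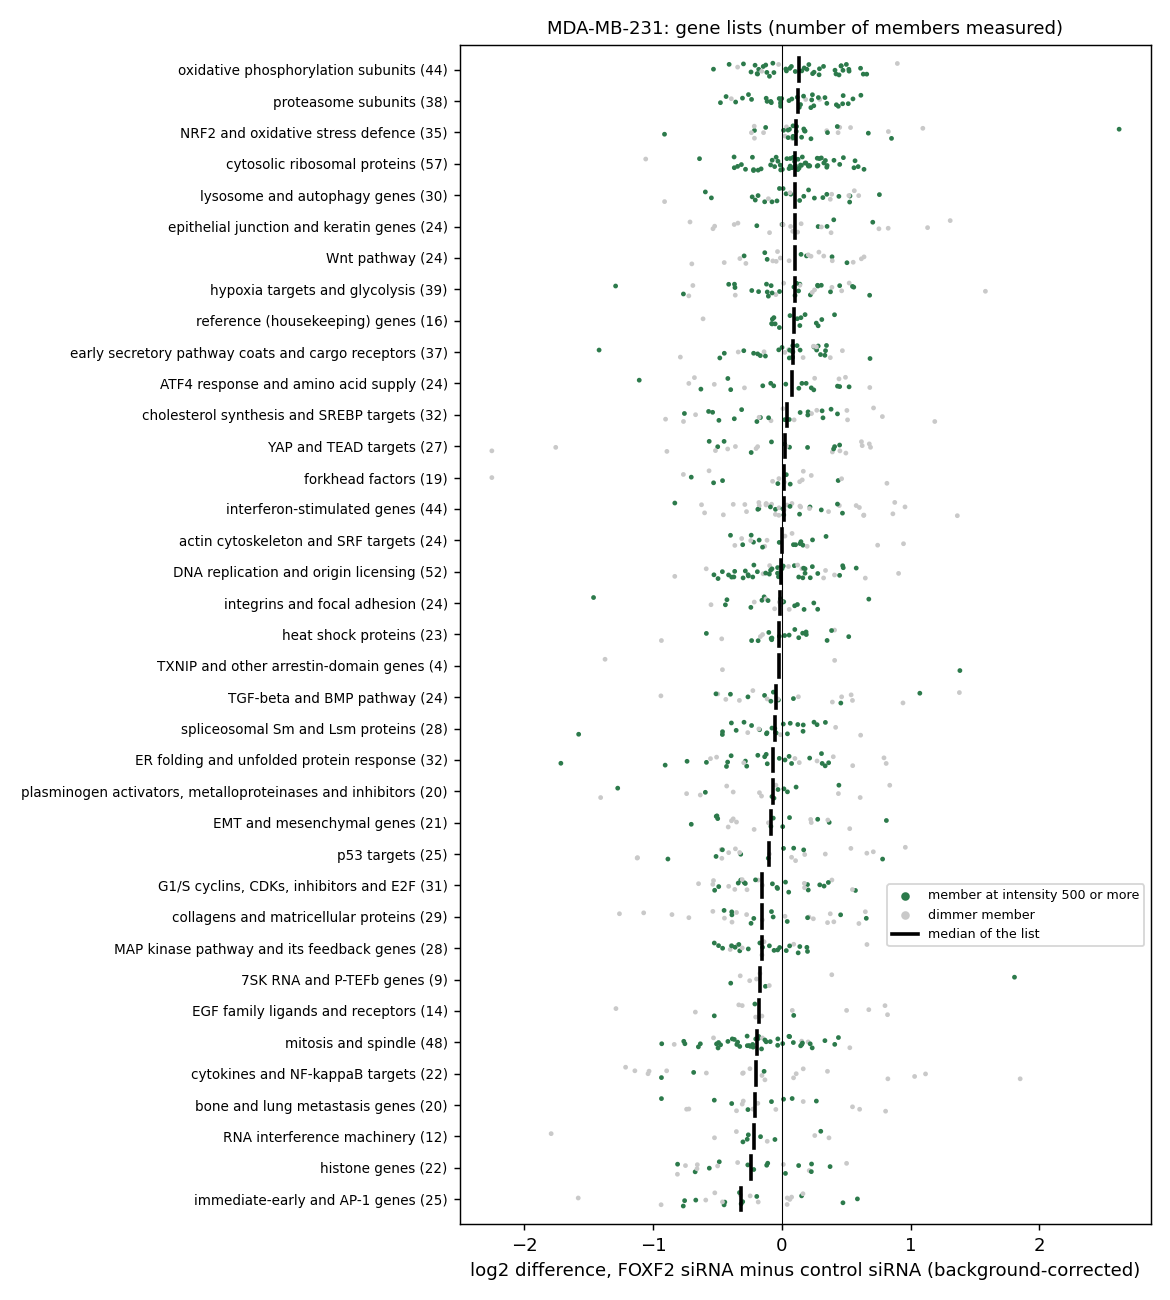
Log2 difference of FOXF2 siRNA minus control siRNA in MDA-MB-231 (horizontal axis) for the measured members of 37 gene lists, 1 point per gene, green at an intensity of 500 or more and grey below, with a black bar at each median. Medians run from -0.31 for immediate-early genes to 0.13 for oxidative phosphorylation and proteasome subunits, while single members such as HMOX1, RN7SK, EDEM1 and TMED2 lie at the ends of their lists.

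The MCF10A arrays showed which of these differences also stood in a second line. Of 4493 bright genes above background on all 4 arrays, 162 were at least 1.5-fold lower in MDA-MB-231, and 21 of these (13.0%) were at least 1.5-fold lower in MCF10A, beside 2.69% of all 4493. They make up 17.4% of the 121 genes that were 1.5-fold lower in MCF10A. Of 154 genes at least 1.5-fold higher in MDA-MB-231, 24 (15.6%) were at least 1.5-fold higher in MCF10A, beside 3.89% of all, and 13.7% of the 175 higher in MCF10A. On the same side of 0 in MCF10A were 58.6% of the lower and 60.4% of the higher genes, beside 52.4% and 47.6% of all. Across the 4493 genes, which share probes and array design, the log2 differences of the lines had Pearson r = 0.153 and Spearman rho = 0.102. At least 2-fold lower in both lines were 3 bright genes, SNRPD1, ITGA2 and TMED2, and 2-fold higher in both were 2, HMOX1 and TXNIP. HMOX1 was dim in MCF10A, at 162 with FOXF2 siRNA and 124 with control siRNA, near that array's limit of 121.5, so that its log2 difference of 1.02 there rests on the background correction. PPP1R15A and DYNLL2 were lower by over 1 on the log2 scale in MDA-MB-231 and had log2 differences of 0.01 and 0.02 in MCF10A; whether the lines differ was not tested.

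**Figure D4:**
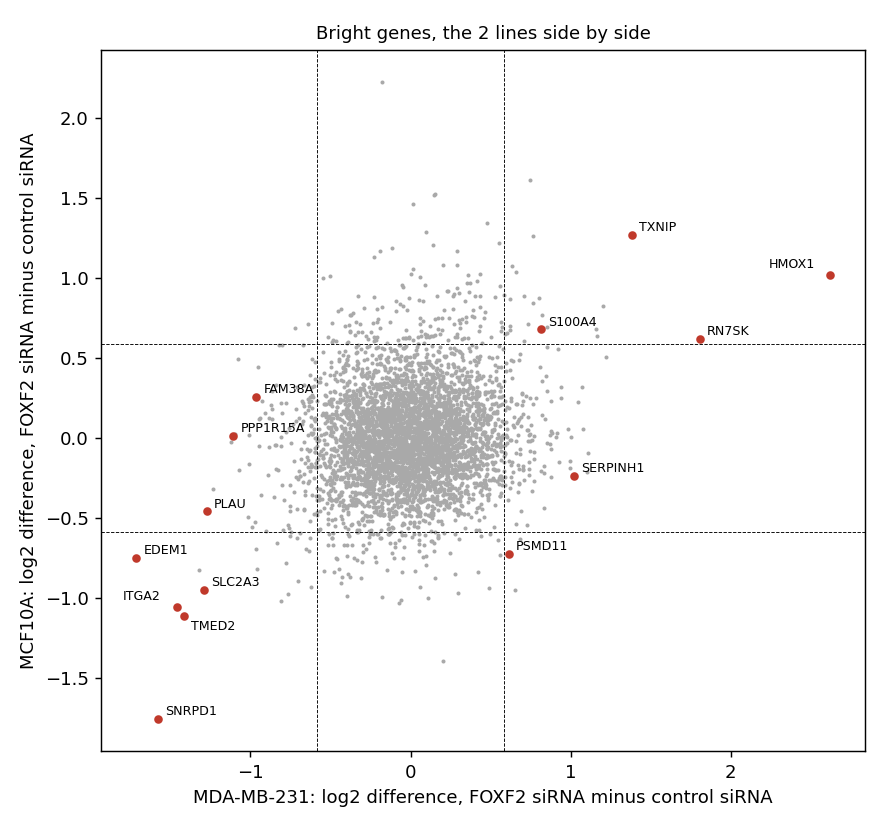
Log2 difference of FOXF2 siRNA minus control siRNA in MDA-MB-231 (horizontal axis) and in MCF10A (vertical axis) for 4493 genes bright in MDA-MB-231 and above background on all 4 arrays, with dashed lines at 1.5-fold. Most genes form a round cloud, and SNRPD1, ITGA2, TMED2, HMOX1 and TXNIP lie at least 2-fold from 0 on both axes.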

How the data were processed

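Total RNA was made into biotinylated cRNA with a MessageAmp kit and read on Illumina arrays, per the labels. The values are the authors' deposited intensity per gene name and array, on a linear scale; how they were normalized and probes summarized was not stated in any source at hand. Column means of 397.5 to 398.7, and medians of 111.4 to 111.6 that lie near background, point to scaling between arrays. Minima of 72.4 to 74.0 show that no background was subtracted. A probe-level table was not used, since its 8 per-sample columns match no label. Each array's background was taken as the mode of its low values (102.1 to 102.4) with the SD of values below it (8.13 to 8.24), corrected by the normexp formula, 16 was added and log2 taken. For a gene above background on only 1 array, the smallest signal counted as above background stood in on the dim array, which gives a bound, used in counts. Python 3.11.15, numpy 2.4.6, pandas 2.3.3 and scipy 1.17.1 were used. The calls were tried on a simulated pair of arrays with changes in bright genes only, so that calls among dim genes were not checked. With 1 array per group no test was run and no p-value is given.

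Of the gene names, 15704 matched a current RefSeq symbol, 2997 a unique synonym and 19109 neither. Genes were named by rule: FOXF2, the 12 highest and 12 lowest at an intensity of 500 or more, the 8 highest and lowest at 2000 or more, up to 4 members of each of 37 lists at least 1.5-fold different, the 3 largest bounds each way, the markers, and genes 1.5-fold different in opposite directions in the lines. Other list members, partners and motif comparisons were picked with their values in view. Some genes that the rule names are not reported here. The rule, members and lists were chosen with earlier results of these data known. The alternatives changed background correction, offset, scaling, limit, filter and bounds.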

Additional observations from a re-analysis of the deposited data

Results flagged for a closer look

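Among named genes above background on all 4 arrays, 2 were at least 1.5-fold different in opposite directions in the lines, and the difference between the lines was not tested. HIST2H2AA3 (now H2AC18), a core histone gene, had intensities of 256 with FOXF2 siRNA and 354 with control siRNA in MDA-MB-231, a log2 difference of -0.66. In MCF10A it had 521 and 344, a log2 difference of 0.76. It belongs to a family of near-identical copies that a probe may not separate. PSMD11, a lid subunit of the proteasome, had 509 and 363 in MDA-MB-231, a log2 difference of 0.61, and 264 and 380 in MCF10A, a log2 difference of -0.72. Without background correction the log2 differences in MDA-MB-231 were -0.47 for HIST2H2AA3 and 0.49 for PSMD11, both short of 1.5-fold.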

How the results depend on the processing

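No paired analysis was possible because each group held 1 array and the labels give no replicate numbers. The counts rest on how dim genes are treated. With log2 of the deposited intensity and no background correction, 7 genes were 2-fold higher and 12 lower, 109 and 108 bright genes were 1.5-fold higher and lower, and FOXF2 differed by -1.08. With an offset of 50 these were 34 and 35 genes, 134 and 136 bright genes, and -1.56 for FOXF2. With the background limit at the upper 5% there were 321 and 365 genes at 2-fold, and at the upper 0.1% 125 and 156. Without a filter on dim genes there were 845 and 926, and with genes above background on 1 array left out 104 and 110. With brightness set from 1000, 70 and 73 bright genes were 1.5-fold higher and lower, since fewer genes were tested. Scaling to a common median and quantile normalization kept all counts within 1.5 times. All 110 named genes at least 1.5-fold different and above background on both arrays, FOXF2 left out, kept their sign under the 4 alternatives of scale. That outcome was nearly fixed in advance and is no support. The arrays had almost equal backgrounds, and the genes were chosen for their size. Without background correction 34 of the 110 fell under 1.5-fold. The 19 lists with a median at least 0.1 from 0 kept its sign under every alternative run. Signal over background limits the dim genes, with a robust SD of 0.415 under an intensity of 200.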

Other observations

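Other lists are given by their medians and by members named by rule. In the lysosome and autophagy list (median 0.10 over 30 genes), the cathepsin gene CTSZ had 931 with FOXF2 siRNA and 585 with control siRNA, a log2 difference of 0.76, and WIPI1, which acts in autophagosome formation, had 498 and 358, a log2 difference of 0.60. In the p53 target list (-0.10 over 25), XPC, a sensor of DNA lesions, had 577 and 371, a log2 difference of 0.78, while ZMAT3 stood at -0.88. In the cholesterol list (0.04 over 32), INSIG1, which retains the SREBP complex in the ER, had 276 and 408, a log2 difference of -0.76. Its relative INSIG2 had 422 and 282, a log2 difference of 0.78, and NSDHL, an enzyme of the pathway, had 414 and 639, a log2 difference of -0.76.

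The heat shock list had a median of -0.02 over 23 genes, and its regulator gene HSF1 had 200 and 303, a log2 difference of -0.93. Of 22 measured histone genes 5 were at least 1.5-fold lower and 0 higher, beside 7.47% and 7.31% of all genes, with a median of -0.24; HIST2H2AC had 391 and 620, a log2 difference of -0.81, and HIST1H1C, a linker histone, had 596 and 898, a log2 difference of -0.67. The TGF-beta and BMP list had a median of -0.05 over 24 genes, with PMEPA1, a feedback inhibitor of that pathway, at 249 and 398, a log2 difference of -0.94. Medians were 0.10 for the Wnt list, 0.02 for YAP and TEAD targets, 0.00 for actin and SRF targets, -0.18 for EGF ligands and receptors, -0.20 for the metastasis list and -0.21 for the RNA interference machinery.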
